A study of Homo sapiens with 4 samples.

Results

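The 34 genes described here are 30 listed as targets or regulators of the tumour suppressor p53 and 4 genes of the DNA damage signalling that activates it. Whether p53 regulates each of them in these cells was not tested. They were chosen by name, from general knowledge of the pathway, with earlier results of these data known. All 34 matched 1 row each, by Ensembl ID, in a table of 43450 genes. The cells were BLaER1, a line derived from a human B cell leukaemia and carrying an inducible C/EBPα transgene that allows conversion into macrophage-like cells, and their polyadenylated RNA was sequenced. There were 2 libraries after knockdown of the long non-coding RNA HAL7 (KD, replicates 0 and 1) and 2 control libraries (replicates 0 and 1), and the purpose was to find the expression changes that the knockdown causes. KD cells had 3 LNA GapmeRs against HAL7, antisense oligonucleotides that direct RNase H to their target, added to the medium without transfection. All libraries come from 1 cell line grown in the same medium. What the control cells received, the time of exposure, and whether the transgene was induced are not stated in the labels. Separate cultures for the replicates are not stated either, so every p-value reflects library-to-library spread that could be technical alone.

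p53 is a transcription factor that is held low in unstressed cells by MDM2, an E3 ubiquitin ligase whose gene p53 itself activates. MDM4 is a relative of MDM2 that blocks the activation domain of p53 and works with MDM2. After DNA damage, the kinases ATM, CHEK1 and CHEK2 phosphorylate p53 or its inhibitors, and the targets of p53 then slow the cell cycle, repair DNA, adjust metabolism or start apoptosis. In B cell precursors, which break their own DNA during antigen receptor rearrangement, this balance is a regular part of development.

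The deposited values were taken to be FPKM, a level corrected for the length of the transcript and the number of fragments sequenced. HAL7 had 0.475 and 0.347 FPKM in KD libraries and 0.726 and 0.613 FPKM in control libraries, a ratio of 0.614, with a limma adjusted p of 0.32, so the difference did not pass the test. The summed level of 10 B lineage markers, led by DNTT and IGLL1, was 3900 and 3950 FPKM in KD and 4030 and 4020 FPKM in control libraries. Of 10 macrophage and monocyte markers, 2 had a mean of at least 1 FPKM, CSF1R and CD68, and S100A8 and S100A9 were listed at 0 in all libraries; their sum was 37.0 and 40.6 FPKM in KD and 40.0 and 39.1 FPKM in control libraries. Of 9 T and NK cell markers in the table, NKG7 alone had a mean of at least 1 FPKM, CD5 was next, and CD3D, CD3G and CD2 were listed at 0; the sum was 22.1 and 17.4 FPKM in KD and 27.8 and 27.4 FPKM in control libraries. Steps in the low values placed control replicate 0 lowest in depth, with the others at 1.58 to 2.11 times its depth. In bulk RNA, fewer cells of a type and less RNA per cell cannot be told apart.

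Differences are given on the log2(FPKM + 1) scale as KD minus control, with the standard error (SE) and the p of limma, a linear model that pools the spread across genes. Benjamini-Hochberg adjustment ran over 12935 genes, those averaging 1 FPKM or more, and HAL7. Of the 34 genes, 32 were tested; FAS and SPATA18 lay under the minimum. None of the 32 passed an adjusted p of 0.05 (0 higher, 0 lower), where 0.0309% of all genes tested did. At an unadjusted p under 0.05 there were 10, of which 3 were higher and 7 lower in KD libraries, or 31.2% against 16.6% of all genes tested. The background was 7.25% on the higher and 9.35% on the lower side. The counts of higher and lower genes moved when a library was left out, as did the share over all genes tested. The KD and control libraries did not overlap in 19 of the 32 genes, or 59.4%, against 50.3% of all genes. Without overlap, 10 of the 32 were higher, against 22.5% of all genes, and 9 of the 32 lower, against 27.7%. The median difference of the 32 genes was 0.00 (-0.003), with 16 on each side of 0, and that of all genes was -0.01, with 46.8% above 0. The smallest two-sided p of an exact permutation test of 2 libraries against 2 is 0.333, so no single gene can pass one.

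**Figure D1:**
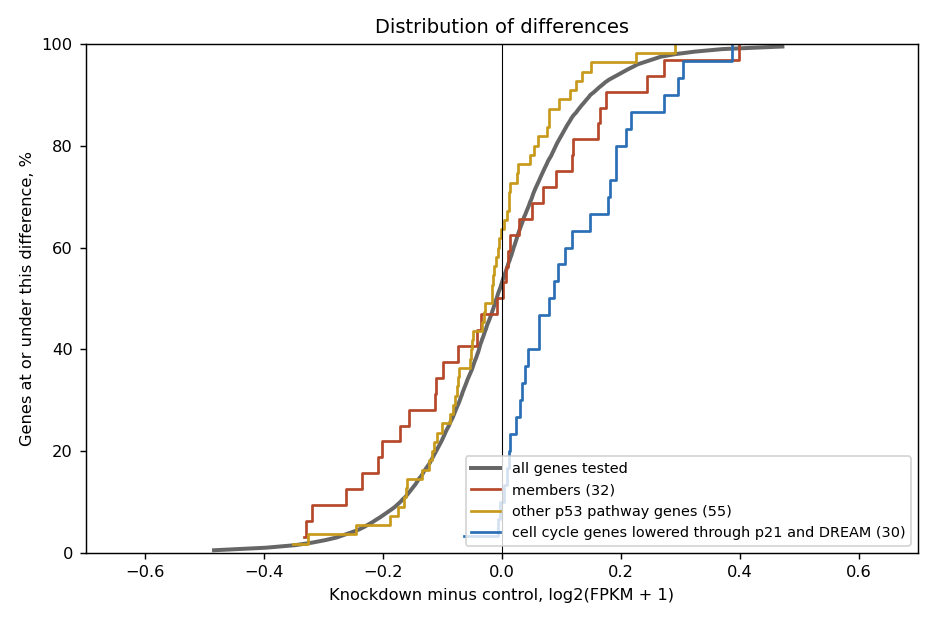
Cumulative share of genes (vertical axis, percent) at or under each difference between KD and control (horizontal axis, log2(FPKM + 1)), for the 32 tested p53 genes ("members"), 55 other p53 pathway genes, 30 cell cycle genes and all 12935 genes tested. The p53 genes cross 0 near the middle and reach from -0.33 (TP53INP1) to 0.40 (MDM2). Differences larger than 0.2 in size were found in 31.2% of them and in 13.1% of all genes. The most extreme of all genes, at -6.82 and 6.30, lie far beyond the p53 genes and outside the axis.

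Promoter sequences are shown for the genes with an exact p53 decamer near the start of transcription, and for MDM2 and PMAIP1, which had the smallest unadjusted p on the higher side. The p53 response element is built of decamers with 3 purines, C, 2 letters that are A or T, G, and 3 pyrimidines, which read the same kind of motif on both strands. RefSeq promoters on GRCh38.p14, from 250 bases before to 50 after the start, were found for 29 of the 34 genes. An exact decamer stood in 4 of the 29, or 13.8%, against 6.54% of 27305 promoters of the same length and 4 of 56 promoters of other p53 pathway genes, or 7.14%. None of the 29 held a pair of exact decamers separated by 0 to 13 bases, which 0.0293% of all promoters held. In the 60-base stretches below, capitals mark the decamer, and all are read 5′ to 3′ on the strand of the gene. The decamer begins 34 bases before the start in AEN (chr15:88621280-88621339, plus strand), 11 bases before it in FDXR (chr17:74872995-74873054, minus strand), 132 bases before it in PLK2 (chr5:58460184-58460243, minus strand) and 59 bases before it in RPS27L (chr15:63157502-63157561, minus strand).
AEN: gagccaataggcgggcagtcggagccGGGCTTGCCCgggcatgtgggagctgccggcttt
FDXR: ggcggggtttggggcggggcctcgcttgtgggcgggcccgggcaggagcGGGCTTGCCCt
PLK2: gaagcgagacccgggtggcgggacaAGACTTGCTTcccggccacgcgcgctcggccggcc
RPS27L: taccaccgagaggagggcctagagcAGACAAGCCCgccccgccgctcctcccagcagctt
The decamers of AEN and FDXR have the same letters. The 250 bases before the start of MDM2 (chr12:68807922-68808171, plus strand) and of PMAIP1 (chr18:59899746-59899995, plus strand) hold no exact decamer and are given in full.
MDM2: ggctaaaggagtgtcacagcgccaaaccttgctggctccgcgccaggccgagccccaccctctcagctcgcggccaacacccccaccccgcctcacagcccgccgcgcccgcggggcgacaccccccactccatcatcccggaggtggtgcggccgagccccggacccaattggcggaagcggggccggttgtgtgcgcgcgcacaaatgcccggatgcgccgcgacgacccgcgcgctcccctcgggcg
PMAIP1: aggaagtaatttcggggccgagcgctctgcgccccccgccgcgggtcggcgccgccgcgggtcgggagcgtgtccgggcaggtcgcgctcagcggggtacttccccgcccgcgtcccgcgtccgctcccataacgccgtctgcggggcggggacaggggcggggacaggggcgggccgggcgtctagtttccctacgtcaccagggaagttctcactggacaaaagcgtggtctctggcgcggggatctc
The absence of the exact letters in these windows says nothing of the binding of p53, whose sites in MDM2 are known to lie in the first intron. Of the 4 genes with a decamer, AEN stood at a KD-to-control ratio of mean FPKM of 0.995, FDXR at 0.916, PLK2 at 0.746 and RPS27L at 0.923. PLK2 alone of them had an unadjusted limma p under 0.05, which 16.6% of all genes tested had. Differences among the 4 were not tested.

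Among the feedback regulators, MDM2 and MDM4 lay on opposite sides. MDM2 had 171.1 and 198.8 FPKM in KD libraries and 145.4 and 134.3 FPKM in control libraries. Both KD libraries lay above both control libraries, and the KD libraries were the farther apart. The means were 185 ± 19.6 FPKM in KD and 140 ± 7.84 FPKM in control libraries (n = 2 each, ± SD), a ratio of 1.32, with a difference of 0.40 ± 0.08 (SE) and an adjusted limma p of 0.19. The unadjusted p was 0.0025, and 99.2% of all genes tested had a difference at or under that of MDM2. MDM2 (ENSG00000135679.15) lies on the plus strand of chromosome 12, from 68808176 to 68850686 on GRCh38.

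A second gene is annotated over the exons of MDM2 on the other strand. The antisense gene AC025423.4 (ENSG00000257181.1; 68841288 to 68843237, minus strand) has 785 exon bases, and all 785 lie over annotated MDM2 exons. It had 80.8 and 93.6 FPKM in KD libraries and 62.2 and 43.8 FPKM in control libraries, a ratio of 1.64, with a difference of 0.72 ± 0.16 (SE) and an adjusted limma p of 0.19. Like MDM2, it was higher in both KD libraries than in both control libraries. Strand-specific counting is not stated, and without it reads of MDM2 and of its antisense partner cannot be told apart, so the MDM2 values carry that uncertainty. CPM, a carboxypeptidase gene that also overlaps MDM2 exons on the other strand, had 3.28 and 4.35 FPKM in KD and 3.54 and 3.37 FPKM in control libraries.

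MDM4 was close to constant within each group. It had 23.8 and 23.5 FPKM in KD libraries and 27.5 and 27.2 FPKM in control libraries, with no overlap between the groups. The means were 23.6 ± 0.186 FPKM in KD and 27.3 ± 0.247 FPKM in control libraries (n = 2 each, ± SD), a ratio of 0.865, with a difference of -0.20 ± 0.05 (SE) and an adjusted limma p of 0.20. MDM4 (ENSG00000198625.7; chromosome 1, 204516379 to 204558120 on GRCh38, plus strand) overlaps no annotated exon on the other strand. The ratio of MDM2 to MDM4, both in FPKM, was 7.199 and 8.457 in KD libraries and 5.28 and 4.94 in control libraries. That ratio was higher in both KD libraries, which follows from the MDM2 and MDM4 values already given. It carries the uncertainty of the MDM2 values, and the smallest exact permutation p that 2 against 2 libraries allow for it is 0.333.

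The other feedback genes showed smaller differences. PPM1D, which encodes the phosphatase WIP1 that removes activating phosphates from p53 and from its kinases, had 11.2 and 11.1 FPKM in KD libraries and 10.1 and 10.7 FPKM in control libraries. Its groups did not overlap, and its limma adjusted p was 0.49. CCNG1, which encodes cyclin G1, a protein that recruits a phosphatase to MDM2, was with MDM2 the most abundant of the 34 genes. It had 130 and 121 FPKM in KD libraries and 129 and 155 FPKM in control libraries, so the groups overlapped. Its difference was -0.17 ± 0.09 (SE), at a limma adjusted p of 0.40, and it moved to -0.04 without control replicate 1 and to -0.30 without control replicate 0.

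**Figure D2:**
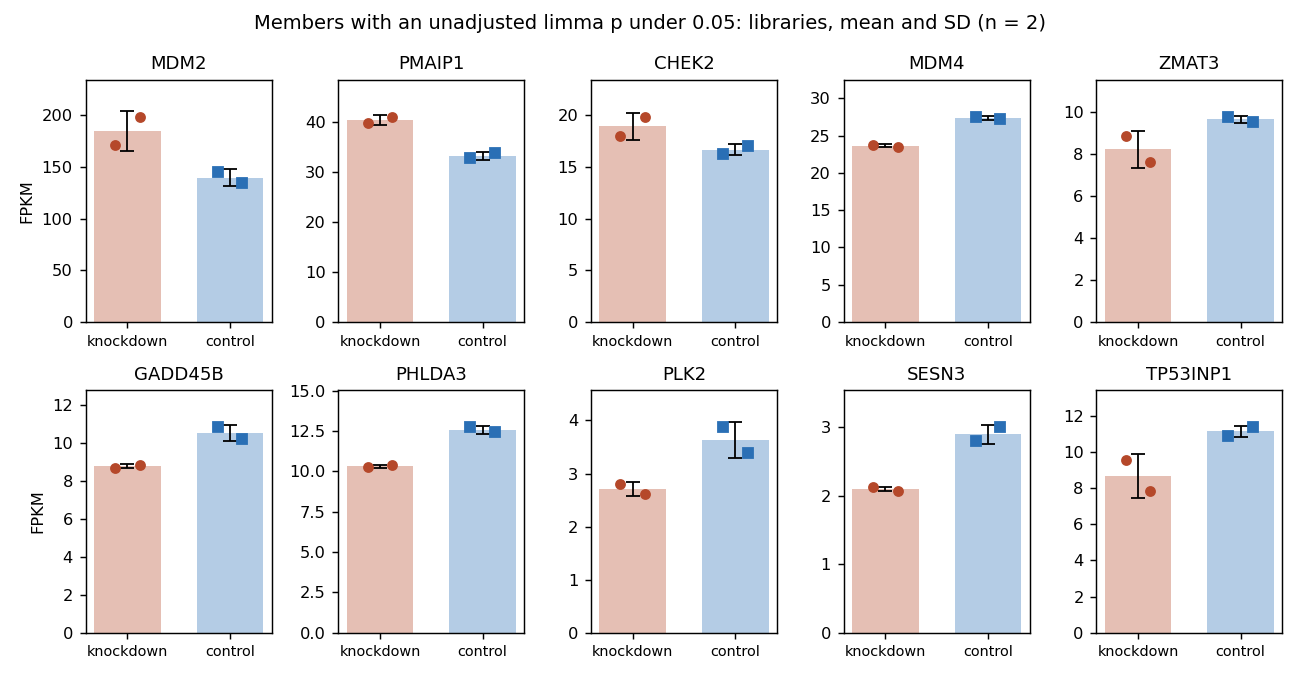
FPKM (vertical axes, each from 0) of the 10 p53 genes with an unadjusted limma p under 0.05, for KD (left, red circles) and control (right, blue squares); points are libraries, bars group means and error bars the SD (n = 2 each). MDM2, PMAIP1 and CHEK2 are higher and the other 7 lower in both KD libraries than in both control libraries. The 10 genes were picked by that p from these same libraries, so their lack of overlap is no further evidence. That p was reached by 16.6% of all genes tested, and the groups did not overlap in 50.3%.

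Of the 9 genes of apoptosis and survival, 8 were tested, 2 on the higher and 6 on the lower side, with a median difference of -0.11 (-0.105). At an unadjusted limma p under 0.05 there were 1 higher and 3 lower, against 7.25% and 9.35% of all genes tested. PMAIP1, which encodes NOXA, a BH3-only protein that neutralises the survival protein MCL1, had 39.7 and 41.1 FPKM in KD libraries and 32.7 and 33.8 FPKM in control libraries. The libraries of each group lay close together and the groups did not overlap. The means were 40.4 ± 0.934 FPKM in KD and 33.3 ± 0.778 FPKM in control libraries (n = 2 each, ± SD), a ratio of 1.21, with a difference of 0.27 ± 0.05 (SE) and an adjusted limma p of 0.19. PMAIP1 (ENSG00000141682.10; chromosome 18, 59899948 to 59904306 on GRCh38, plus strand) overlaps no annotated exon on the other strand.

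PHLDA3, whose product competes with the kinase AKT for membrane lipids and so restrains a survival pathway, lay on the other side. It had 10.3 and 10.4 FPKM in KD libraries and 12.7 and 12.4 FPKM in control libraries, without overlap. The means were 10.3 ± 0.0857 FPKM in KD and 12.6 ± 0.219 FPKM in control libraries (n = 2 each, ± SD), a ratio of 0.821, with a difference of -0.26 ± 0.06 (SE) and an adjusted limma p of 0.19. PHLDA3 (ENSG00000174307.5; chromosome 1, 201464383 to 201469237 on GRCh38, minus strand) has a transcript GC content of 69.1%. Over 12499 genes, no independent replicates of each other, differences were lower at higher GC content (Spearman rho of -0.405, given as a description). With that trend removed the difference of PHLDA3 was -0.14, and that of PMAIP1, with a GC content of 45.6%, was 0.25.

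TP53INP1, a nuclear protein gene that promotes p53 phosphorylation and autophagy, had 9.53 and 7.81 FPKM in KD libraries and 10.9 and 11.4 FPKM in control libraries. Both KD libraries were lower than both control libraries, and KD replicate 1 was the lowest. The difference was -0.33 ± 0.09 (SE), at a limma adjusted p of 0.21, which was -0.20 without KD replicate 1 and -0.46 without KD replicate 0. ZMAT3, which encodes an RNA-binding zinc finger protein that regulates splicing, had 8.86 and 7.61 FPKM in KD libraries and 9.79 and 9.52 FPKM in control libraries. Again KD replicate 1 was the lowest, and the difference was -0.21 ± 0.08 (SE), at a limma adjusted p of 0.28. Without KD replicate 1 that difference was -0.11.

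Other apoptosis genes overlapped between groups or differed little. TNFRSF10B, the gene of the death receptor DR5, had 65.7 and 60.3 FPKM in KD libraries and 64.7 and 70.3 FPKM in control libraries. RPS27L, a ribosomal protein paralog that affects p53 stability, had 56.7 and 53.3 FPKM in KD and 55.9 and 63.3 FPKM in control libraries. Both overlapped, with limma adjusted p of 0.50 and 0.48 in that order. AEN, an apoptosis-enhancing nuclease gene, had 14.8 and 16.4 FPKM in KD and 15.5 and 15.8 FPKM in control libraries, with a 95% interval of the difference from -0.17 to 0.15. TRIAP1, whose product holds back the apoptosome, had 22.0 and 23.3 FPKM in KD and 20.6 and 20.9 FPKM in control libraries, without overlap, at a limma adjusted p of 0.35. FAS, the death receptor CD95, was below the minimum, at 0.569 and 0.842 FPKM in KD and 0.697 and 0.740 FPKM in control libraries.

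**Figure D3:**
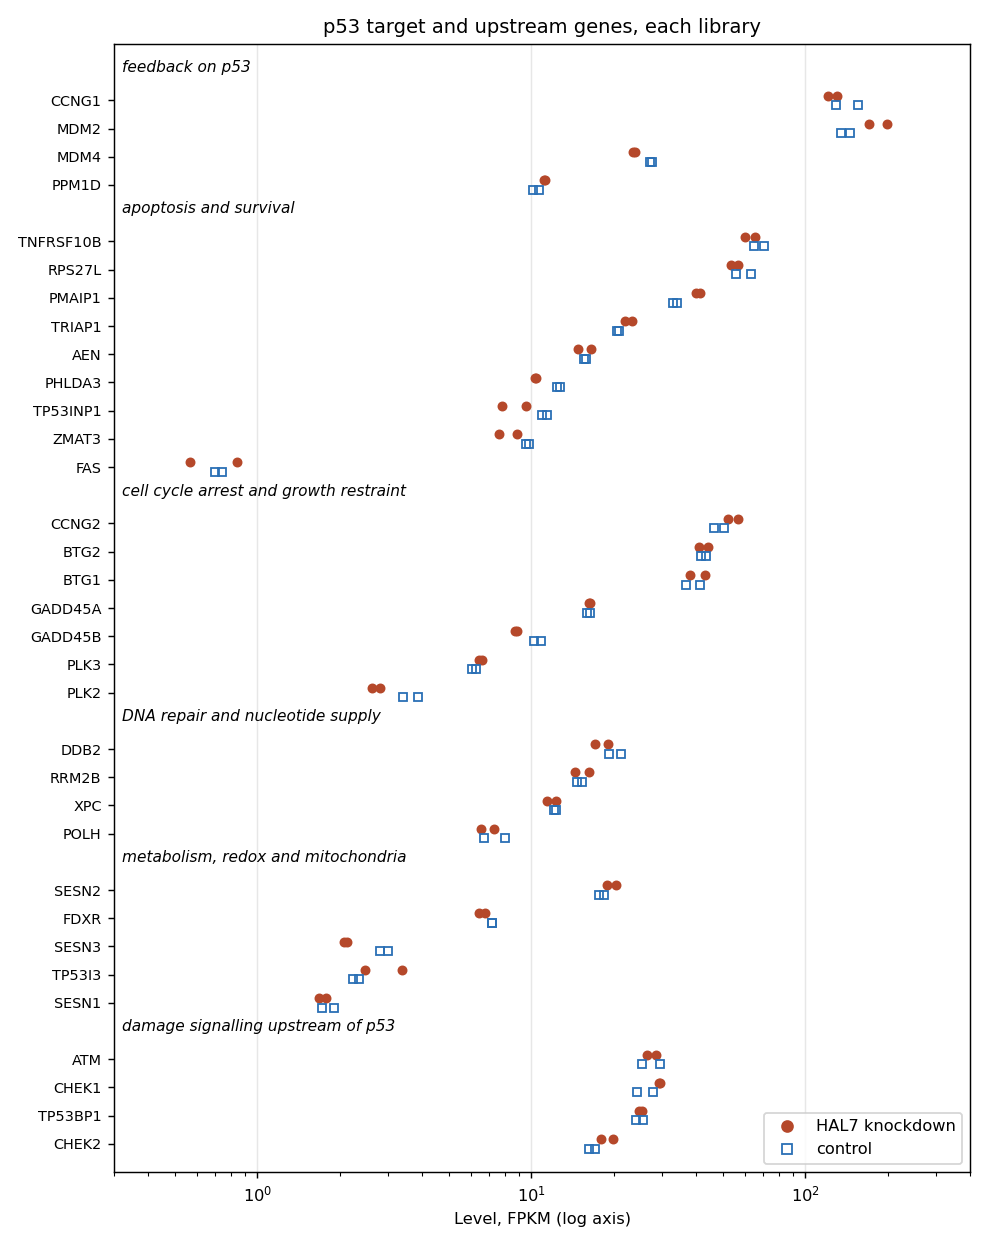
FPKM (horizontal log axis) of 33 of the 34 genes in each library, by role; red circles are KD and blue open squares control libraries, KD above control. SPATA18, at 0.00669 FPKM or less in every library, is not drawn. Levels span from under 1 FPKM (FAS) to over 100 FPKM (CCNG1 and MDM2), a wider range than any difference between the groups.

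The genes of cell cycle arrest and growth restraint numbered 7, all tested, with 5 on the higher and 2 on the lower side and a median difference of 0.01. The 2 lower ones were those with an unadjusted limma p under 0.05, which 16.6% of all genes tested had. GADD45B, a stress sensor gene that acts upstream of p38 and JNK kinases, had 8.71 and 8.88 FPKM in KD libraries and 10.8 and 10.2 FPKM in control libraries. The groups did not overlap, with means of 8.80 ± 0.124 FPKM in KD and 10.5 ± 0.426 FPKM in control libraries (SD, n = 2 each), a difference of -0.24 ± 0.06 (SE) and an adjusted limma p of 0.20. Its paralog GADD45A, the classical damage-induced member of that family, had 16.3 FPKM in both KD libraries and 15.9 and 16.4 FPKM in control libraries. The 95% interval of the GADD45A difference ran from -0.12 to 0.14. The transcript GC content of GADD45A is 70.0%. With the GC trend removed its difference of 0.01 was 0.14, and that of GADD45B was -0.19. The ratio of GADD45B to GADD45A was 0.536 and 0.545 in KD libraries and 0.681 and 0.626 in control libraries. It was lower in both KD libraries, as GADD45B alone was.

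PLK2, a polo-like kinase gene of centriole duplication and stress responses, was among the least abundant genes. It had 2.80 and 2.61 FPKM in KD libraries and 3.87 and 3.39 FPKM in control libraries, again without overlap. Its ratio was 0.746, with a difference of -0.32 ± 0.09 (SE) and an adjusted limma p of 0.20. On the log2(FPKM + 1) scale the change of such low genes is understated: with 0.1 added in place of 1 the difference of PLK2 was -0.41. For HAL7, lower still, the difference was -0.60 with 0.1 added and -0.24 with 1. PLK3, a related stress kinase gene, had 6.62 and 6.43 FPKM in KD and 6.05 and 6.30 FPKM in control libraries. Its estimate lay on the side opposite to that of PLK2, with a 95% interval from -0.09 to 0.22.

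Of the remaining growth genes, CCNG2, which encodes the growth-inhibiting cyclin G2, had 56.5 and 51.9 FPKM in KD libraries and 50.6 and 46.2 FPKM in control libraries. Its groups did not overlap, its limma adjusted p was 0.31, and its difference of 0.16 was 0.10 (0.102) without KD replicate 0 and 0.10 (0.097) without control replicate 1. The estimates of the cyclin G genes thus lay on opposite sides, though the 95% interval of each included 0. The ratio of CCNG1 to CCNG2 was 2.31 and 2.33 in KD and 2.56 and 3.36 in control libraries. BTG1 and BTG2 encode antiproliferative proteins that bind the CCR4-NOT deadenylase and are frequently mutated in B cell tumours. BTG1 had 42.8 and 37.8 FPKM in KD and 36.6 and 41.1 FPKM in control libraries. BTG2 had 44.0 and 40.9 FPKM in KD and 41.4 and 43.3 FPKM in control libraries. In both BTG genes the groups overlapped, and the 95% interval for BTG2 ran from -0.14 to 0.15.

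The DNA repair and nucleotide supply genes showed no unadjusted limma p under 0.05 (0 of 4, against 16.6% of all genes tested), and their median difference was -0.06 (-0.055). DDB2, a damage-recognition subunit of nucleotide excision repair, had 19.0 and 17.1 FPKM in KD libraries and 19.2 and 21.3 FPKM in control libraries. It was the only one of the 4 whose groups did not overlap, as in 50.3% of all genes tested, at a difference of -0.16 ± 0.08 (SE) and an adjusted limma p of 0.37. That difference was -0.08 (-0.081) without KD replicate 1 and -0.09 (-0.085) without control replicate 1. XPC, which recognises helix distortion in the same repair pathway, had 12.3 and 11.4 FPKM in KD and 12.04 and 12.33 FPKM in control libraries. POLH, the translesion polymerase eta gene, had 7.33 and 6.52 FPKM in KD and 6.73 and 7.98 FPKM in control libraries. RRM2B, the p53-inducible ribonucleotide reductase subunit, had 16.2 and 14.4 FPKM in KD and 14.6 and 15.3 FPKM in control libraries. The 95% intervals of the differences ran from -0.19 to 0.11 for XPC, from -0.30 to 0.15 for POLH and from -0.14 to 0.20 for RRM2B.

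The genes of metabolism, redox control and mitochondria included the sestrins, stress proteins that restrain mTORC1 signalling and oxidative damage. SESN3 had 2.12 and 2.08 FPKM in KD libraries and 2.795 and 2.998 FPKM in control libraries, without overlap. Its means were 2.10 ± 0.0345 FPKM in KD and 2.90 ± 0.144 FPKM in control libraries (n = 2 each, ± SD), a ratio of 0.725, with a difference of -0.33 ± 0.08 (SE) and an adjusted limma p of 0.19. SESN3 (ENSG00000149212.6) lies on the minus strand of chromosome 11, from 95165513 to 95232541 on GRCh38. The gene AP000787.1, which overlaps its exons on the other strand, had 1.60 and 1.54 FPKM in KD and 1.07 and 1.10 FPKM in control libraries, higher in both KD libraries.

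SESN1 had 1.78 and 1.68 FPKM in KD libraries and 1.72 and 1.91 FPKM in control libraries, so the groups overlapped. SESN2, the most abundant sestrin gene, had 18.9 and 20.4 FPKM in KD libraries and 18.4 and 17.6 FPKM in control libraries, without overlap. Its difference was 0.12, at a limma adjusted p of 0.38. That difference was 0.07 without KD replicate 1, 0.17 without KD replicate 0 and 0.18 with the GC trend removed. The sestrin genes therefore did not share a direction. The ratio of SESN1 to SESN3 was 0.8383 and 0.8104 in KD libraries and 0.615 and 0.636 in control libraries.

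FDXR, the mitochondrial ferredoxin reductase gene, had 6.44 and 6.74 FPKM in KD libraries and 7.189 and 7.204 FPKM in control libraries, without overlap, at a limma adjusted p of 0.42. Its difference of -0.11 was -0.03 with the GC trend removed. TP53I3, a quinone oxidoreductase-like gene also called PIG3, had 2.46 and 3.38 FPKM in KD libraries and 2.23 and 2.35 FPKM in control libraries. Its KD mean rested on replicate 1: the difference of 0.24 ± 0.12 (SE) was 0.08 (0.075) without KD replicate 1 and 0.41 without KD replicate 0. The coding gene FAM228B overlaps TP53I3 exons on the other strand, at 5.12 and 4.48 FPKM in KD and 4.62 and 5.09 FPKM in control libraries. SPATA18, a mitochondrial quality control gene, was listed at 0 in KD replicate 1 and control replicate 0 and at 0.00669 FPKM or less in the others, so no fold is given.

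**Figure D4:**
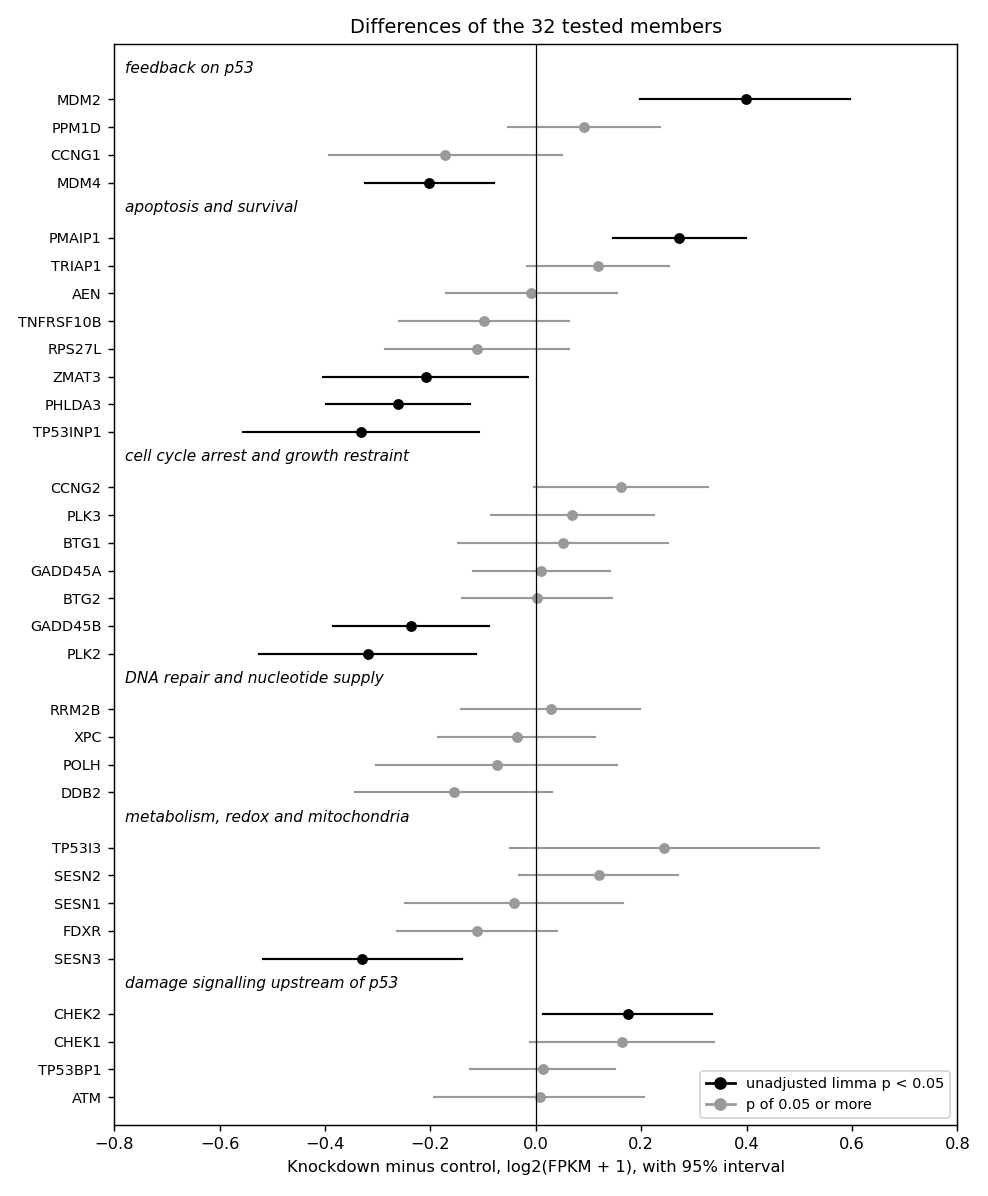
Differences between KD and control on the log2(FPKM + 1) scale (horizontal axis) with 95% limma intervals for the 32 tested genes, by role. Black marks an unadjusted p under 0.05, which 16.6% of all genes tested had, and grey the rest. No gene passed after adjustment. Black genes number 2 of 4 for feedback, 4 of 8 for apoptosis and survival and 2 of 7 for cell cycle arrest. They number 0 of 4 for DNA repair and nucleotide supply, 1 of 4 upstream of p53 and 1 of 5 for metabolism. So few genes per role do not set the roles apart.

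Of the 4 genes upstream of p53, CHEK1 and CHEK2 lay on the higher side, and ATM and TP53BP1 were near 0, at 0.01 each. CHEK2, a checkpoint kinase gene downstream of ATM, had 18.0 and 19.9 FPKM in KD libraries and 16.28 and 17.04 FPKM in control libraries. The groups did not overlap, with a difference of 0.17 ± 0.07 (SE), an unadjusted limma p of 0.038 and an adjusted p of 0.28. Its 4 named pseudogenes with entries in the table were listed at 0 in all libraries, and HSCB, which overlaps CHEK2 exons on the other strand, had 11.9 and 10.3 FPKM in KD and 10.5 and 11.3 FPKM in control libraries. With the GC trend removed the CHEK2 difference was 0.13, and without KD replicate 1 it was 0.11 (0.107).

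CHEK1, the kinase gene of the replication checkpoint, had 29.1 and 29.4 FPKM in KD libraries and 27.9 and 24.3 FPKM in control libraries, without overlap, at a limma adjusted p of 0.32. Control replicate 1 was the lowest, and without it the CHEK1 difference of 0.16 ± 0.07 (SE) was 0.07, and without control replicate 0 it was 0.26. ATM, the kinase gene of the double-strand break response, had 28.6 and 26.3 FPKM in KD and 29.4 and 25.4 FPKM in control libraries. TP53BP1, a break-repair adaptor gene, had 25.3 and 24.7 FPKM in KD and 24.0 and 25.6 FPKM in control libraries. In both ATM and TP53BP1 the groups overlapped, and each changed sign when some libraries were left out, which ATM also did with the GC trend removed, at -0.05.

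The targets of p53 best known for arrest and apoptosis lie outside the 34 genes. CDKN1A, which encodes the cyclin-dependent kinase inhibitor p21, had 81.6 and 77.1 FPKM in KD libraries and 90.7 and 90.5 FPKM in control libraries. The groups did not overlap, with a difference of -0.19 ± 0.05 (SE), an unadjusted limma p of 0.0098 and an adjusted p of 0.21. BBC3, the gene of the BH3-only protein PUMA, had 25.8 and 24.0 FPKM in KD and 27.8 and 28.2 FPKM in control libraries. BAX, the pore-forming apoptosis effector, had 71.6 and 72.7 FPKM in KD and 78.98 and 76.91 FPKM in control libraries. The differences of BBC3 and BAX were -0.16 and -0.11, at limma adjusted p of 0.25 and 0.32. CDKN1A, BBC3 and BAX were thus lower in both KD libraries than in both control libraries, as 27.7% of all genes tested were. MDM2 and PMAIP1 were higher in both, as 22.5% of all genes tested were. With the GC trend removed the differences were -0.15 for CDKN1A, -0.10 for BBC3 and -0.05 for BAX. Those of MDM2 and PMAIP1 were then 0.35 and 0.25.

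A list of 68 other p53 pathway genes, which includes CDKN1A, BBC3 and BAX, had 55 tested genes, 20 on the higher and 35 on the lower side, with a median difference of -0.02. Of these 55 genes 0 passed an adjusted limma p of 0.05 in either direction, and 10 had an unadjusted p under 0.05, 3 higher and 7 lower, or 18.2% against 16.6% of all genes tested. With the GC trend removed the sides were 28 higher and 27 lower. Without control replicate 0 or control replicate 1, fewer of the 55 genes had such a p, as did fewer of all genes tested. CCDC90B, a mitochondrial coiled-coil protein gene, had 24.9 and 25.3 FPKM in KD and 19.9 and 20.8 FPKM in control libraries, a difference of 0.29 ± 0.06 (SE) with an adjusted limma p of 0.19. SYTL1, a synaptotagmin-like vesicle trafficking gene, had 59.4 and 55.4 FPKM in KD and 69.5 and 77.6 FPKM in control libraries. ABHD4, a lipase family gene, had 12.6 and 11.0 FPKM in KD and 14.6 and 15.4 FPKM in control libraries.

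Of 23 p53 cofactors and modifiers, all tested, 1 was higher and 1 lower at an unadjusted limma p under 0.05, or 8.7% against 16.6% of all genes tested, with 0 past the adjusted test. Their median difference of 0.03 was -0.03 without control replicate 0. RCHY1, a ubiquitin ligase gene that targets p53, had 23.1 and 20.9 FPKM in KD and 19.9 and 17.5 FPKM in control libraries. KAT5, the acetyltransferase gene of TIP60, had 24.4 and 23.9 FPKM in KD and 26.0 and 27.6 FPKM in control libraries.

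Active p53 lowers many cell cycle genes through p21 and the DREAM repressor complex, and 30 such genes were listed, all tested. Of these 27 were on the higher and 3 on the lower side, with a median difference of 0.08 against -0.01 over all genes. The sides were 22 and 8 without KD replicate 0, 23 and 7 without control replicate 1, and 24 and 6 with the GC trend removed. Of the 30 genes 0 passed an adjusted limma p of 0.05, and 9 genes, each of them higher, or 30.0%, had an unadjusted p under 0.05, against 7.25% of all genes tested on the higher side. Without control replicate 0, fewer of the 30 genes had such a p, as did fewer of all genes tested. MCM6, a helicase subunit gene, had 33.4 and 36.0 FPKM in KD and 28.3 and 27.8 FPKM in control libraries, and CDK1, the mitotic kinase gene, had 47.4 and 46.3 FPKM in KD and 38.4 and 33.0 FPKM in control libraries. CHEK1, described above, is not in this list.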

How the data were processed

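The submitters' processing notes name the aligners TopHat2 2.0.14 and Bowtie2 2.2.5, Cuffdiff 2.2.1 and the build hg19. Options, annotation and strand setting are not given in the sources used. The deposited values were read as FPKM, because the ID column has the name that Cuffdiff writes and the sums per library were 812554 to 853609. Genes were named by Ensembl ID. Positions were taken from GENCODE 29 (GRCh38) and differ from those of hg19. limma 3.58.1 in R 4.3.3 was fitted to log2(FPKM + 1) with a mean-variance trend and two-sided p-values, and was tested on simulated data. Depth was read from the steps of FPKM times transcript length in 1215 single-transcript genes of at least 2500 nt, where 80.5% to 84.0% of low values lay within 0.15 of a whole multiple (30% by chance). The steps would stand for 107 and 95.0 M fragments in KD and 60.1 and 127 M in control libraries, if scaling left totals unchanged. Alternatives changed the pseudocount, filter, scaling, variance trend, replicate block, GC trend, gene types and libraries used. The rule for naming genes took all 34 genes, HAL7, CDKN1A, BAX, BBC3, the 4 smallest p of the other p53 list, the 2 smallest of each further list and the 2 most abundant of each marker list. Genes outside it are named for overlapping a listed gene on the other strand, or as listed at 0. The genes, lists and alternatives were chosen with earlier results of these data known. One gene of the other p53 list is not reported here.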

Additional observations from a re-analysis of the deposited data

How the results depend on the processing

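No p53 gene passed limma's adjusted test under any of 14 alternatives (0 each), where the smallest adjusted p was 0.084, for MDM2 without KD replicate 0. MDM2, MDM4 and PMAIP1 kept an unadjusted p under 0.05 in all 14. With a library left out, the 10 genes at that level became 7 to 14, the 3 higher ones 2 to 6, the 7 lower ones 5 to 8, the median of the 32 genes -0.051 to 0.017, the 10 other p53 pathway genes 4 to 11, and the HAL7 difference -0.31 to -0.18. The HAL7 difference was -0.598 with 0.1 added and -0.067 with 5 added. The 3 higher genes became 5 with the replicate block, and 5 among protein-coding genes only. In those fits 15.9% and 18.5% of all genes had an unadjusted limma p under 0.05 in either direction, against 16.6% in the main fit. The genes behind these counts were not always the same. With the GC trend removed 11 of 32 genes had an unadjusted limma p under 0.05, or 34.4%, against 14% of all genes. Of these 11, 8 were among the 10 of the main fit. PHLDA3 and CHEK2 dropped out, and CCNG1, SESN2 and TP53I3 came in. The replicates share only a number, with a correlation of their deviations of 0.122 over 12935 genes, and the block changed no adjusted call of these genes. Differences near 0 changed sign in 10 uncalled genes. AEN stood at 0.001 with quantile normalization and 0.015 with the GC trend removed, BTG1 at -0.013 and ATM at -0.051 with the latter. With a library left out AEN ran from -0.081 to 0.064, BTG1 from -0.037 to 0.139, BTG2 from -0.051 to 0.054, RRM2B from -0.048 to 0.104, ATM from -0.096 to 0.109, TP53BP1 from -0.033 to 0.059, XPC from -0.084 to 0.011, GADD45A from -0.007 to 0.028, POLH from -0.183 to 0.034 and SESN1 from -0.09 to 0.006. The cause of these shifts was not tested. A group reduced to 1 library took its spread from the other one.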
